A study of Mus musculus with 4 samples.

Results

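Translation elongation, release and ribosome recycling factors were followed by the ribosome footprints at their own start sites in cultured mouse cortical neurons. The set was the genes Eef1a1, Eef1a2, Eef1b2, Eef1d, Eef1g, Eef2, Eef2k, Etf1, Gspt1 and Abce1, chosen by symbol, and 9 of the 10 had a transcript among the 6352 transcripts of the authors' table. Eef2k, the kinase that inhibits eEF2, was not among them. Of 7 differences in members that passed a test, 6 lay between libraries of the same genotype. Over all transcripts with reads, 10.8% (WT) and 16.6% (Ltn1 KO) passed between libraries of a genotype. Between genotypes 7.38% and 7.54% passed, so all transcripts leaned the same way. Eef1a2, the neuronal and muscle form of elongation factor eEF1A, was 4.18-fold lower in 1 WT library than in the other and 2.93-fold lower in 1 Ltn1 KO library than in the other. Eef2, the translocation factor, differed in the opposite direction by 1.44-fold and 1.37-fold. Of 1356 other transcripts averaging 10 RPM or more, 323 and 416 rose more than Eef2 in these pairs. These differences passed an exact test that covers counting error only, and none passed once the spread between libraries was allowed for. Without replicates, that spread also holds any effect of genotype or RNAi.

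The neurons were primary cultures from WT mice or from mice lacking Ltn1, the E3 ligase that ubiquitinates nascent chains on stalled ribosomes, and were combined with Control (scrambled) RNAi or Ttc3 RNAi. All cultures received harringtonine at 5 µg/ml for 3 min. Harringtonine stops ribosomes just after initiation, so footprints gather at start codons. Each of the 4 conditions had 1 library and none was replicated. The sample titles assign Control RNAi to the libraries coded TTC and Ttc3 RNAi to those coded SC, whereas the letters of the codes read the other way. The libraries are therefore called WT SC (WT, Ttc3 RNAi by its title), WT TTC (WT, Control RNAi), KO SC (Ltn1 KO, Ttc3 RNAi) and KO TTC (Ltn1 KO, Control RNAi), and this conflict is not settled here. Elsewhere in the study, RNAi reached cultured neurons by lentivirus. The deleted part of Ltn1, the vector used for these 4 cultures and the number of animals behind each were not given in the sources used here.

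Elongation in the cytosol runs in a cycle. eEF1A, bound to GTP, brings each aminoacyl-tRNA to the ribosome, the eEF1B complex (products of Eef1b2, Eef1d and Eef1g) reloads eEF1A with GTP, and eEF2 moves the ribosome along by one codon. At a stop codon eRF1, encoded by Etf1, recognises the codon together with eRF3, encoded by Gspt1 or Gspt2, and ABCE1 then splits the ribosome. Mammals have a pair of eEF1A genes. Eef1a1 is expressed in most tissues, and Eef1a2 replaces it in mature neurons and muscle during postnatal development. The mRNAs of the elongation factors are known for a terminal oligopyrimidine tract, through which their translation follows growth signals.

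The libraries held 1460425 to 3655827 reads, of which 6.06% to 6.85% lay at the listed start sites. Values are RPM, the authors' unit, that is, reads at a site relative to all reads of that library, and the step of 1 read (all values were whole steps within 1e-06) gave the reads behind each value. Intervals are exact 95% intervals of counting error alone. Footprints at a start site measure neither mRNA nor protein. The width of the counted window was not given, so shares of reads between genes are not levels per length. In a culture, fewer cells of a type and fewer footprints per cell cannot be told apart. Ltn1 itself had 10 and 2 reads in the WT libraries (SC, TTC) and 37 and 0 in the Ltn1 KO libraries, so the library labelled KO SC was the highest for the gene named as deleted. Since the deleted part is not given, this neither checks nor contradicts the genotype. Ttc3, the target of the RNAi, had 3 and 2 reads in the SC libraries (WT, Ltn1 KO) and 0 in both TTC libraries, all within a floor of 3 reads.

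The 2 eEF1A genes are shown first by the 250 bases before their RefSeq starts, because their RPM differed in opposite directions between codes. For Eef1a1 that difference passed in the Ltn1 KO libraries only, and not after rescaling of the libraries. CG dinucleotides are in capitals, both sequences run 5′ to 3′ on the minus strand, and the build is GRCm38.p6. This feature was chosen after the values were seen and after a search for another motif (TATAA, either strand) had found no match before either gene.
Eef1a1, chr9:78481725-78481974: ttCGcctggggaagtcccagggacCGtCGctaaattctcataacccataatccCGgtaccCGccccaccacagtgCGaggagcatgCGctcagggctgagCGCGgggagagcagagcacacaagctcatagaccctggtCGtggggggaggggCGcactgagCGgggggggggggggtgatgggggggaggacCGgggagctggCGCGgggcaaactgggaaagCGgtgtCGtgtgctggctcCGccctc
Eef1a2, chr2:181157016-181157265: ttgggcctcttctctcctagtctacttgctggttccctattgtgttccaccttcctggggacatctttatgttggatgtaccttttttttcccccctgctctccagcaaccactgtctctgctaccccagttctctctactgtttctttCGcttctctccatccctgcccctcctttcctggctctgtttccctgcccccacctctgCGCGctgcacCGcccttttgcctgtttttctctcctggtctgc
The Eef1a1 stretch holds 18 CG and 68.0% G or C, and the Eef1a2 stretch holds 4 CG and 54.0%. Among 32851 RefSeq starts the median was 6 CG and 52.4% G or C. A CG occurred before 92.1% of these starts, 4 or fewer before 44.4% and 18 or more before 21.7%. The other members with an entry, Eef1b2, Eef2, Gspt1 and Abce1, held 19, 23, 27 and 20 CG. Eef1a2 thus had the fewest of the 6 members with an entry. These counts describe the sequences, and footprints at start codons do not measure promoter activity.

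Eef1a2 had 78 reads under SC and 13 under TTC in the WT libraries (37.2 and 8.90 RPM), and 103 under SC and 48 under TTC in the Ltn1 KO libraries (38.5 and 13.1 RPM). Both libraries coded SC stood high and both coded TTC stood low, and the intervals of the former (29.4 to 46.4 RPM for WT, 31.45 to 46.7 RPM for Ltn1 KO) did not reach those of the latter (4.74 to 15.2 RPM for WT, 9.68 to 17.4 RPM for Ltn1 KO). The ratio of WT TTC to WT SC was 0.239 (0.122 to 0.433, adjusted p = 5.30e-06, exact binomial test on reads, two-sided, adjusted over all transcripts with reads). The ratio of KO TTC to KO SC was 0.341 (0.237 to 0.484, adjusted p = 2.05e-08, same exact test). Among the 1356 other transcripts that averaged 10 RPM or more, 3 lay lower in the WT pair and 7 in the Ltn1 KO pair, on the log2(RPM + 1) scale. The values of Eef1a2 between codes were known when the set was chosen, so they are a description and carry no independent weight.

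Between genotypes Eef1a2 was close to even in the SC libraries, with a KO to WT ratio of 1.04 (0.764 to 1.41, adjusted p = 1, exact binomial test). In the TTC libraries the ratio was 1.48 (0.787 to 2.97, adjusted p = 0.632, same exact test). Neither passed, and the second interval still holds a change of up to 2.97-fold. In order of level, KO SC and WT SC did not differ beyond counting error, nor did KO TTC and WT TTC.

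Eef1a1 had 45 reads under SC and 47 under TTC in the WT libraries (21.5 and 32.2 RPM), and 34 under SC and 86 under TTC in the Ltn1 KO libraries (12.7 and 23.5 RPM). It was highest in WT TTC, where Eef1a2 was lowest, and lowest in KO SC, where Eef1a2 was highest. In the Ltn1 KO libraries Eef1a1 was 1.85-fold higher in TTC than in SC (1.23 to 2.84, adjusted p = 0.0186, exact binomial test). This call was lost when the libraries were rescaled to the same sum over start sites (adjusted p = 0.0676) or by median-of-ratios factors (adjusted p = 0.0795), in the same exact test. In the WT libraries the ratio was 1.499 (0.975 to 2.31, adjusted p = 0.247). The KO to WT ratio was 0.592 in the SC libraries (0.368 to 0.946) and 0.731 in the TTC libraries (0.506 to 1.07), with adjusted p of 0.164 and 0.340 in the exact binomial test. RefSeq names 2 pseudogenes after Eef1a1 and 1 after Eef2, and how the authors' alignment split reads between such copies was not given, so their reads are uncertain to that extent.

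The share of Eef1a2 among the reads of both eEF1A genes is independent of how the libraries are scaled. For the WT cultures it was 63.4% under SC (78 of 123 reads, exact Clopper-Pearson interval 54.3% to 71.9%) and 21.7% under TTC (13 of 60, 12.1% to 34.2%). For the Ltn1 KO cultures it was 75.2% under SC (103 of 137, 67.1% to 82.2%) and 35.8% under TTC (48 of 134, 27.7% to 44.6%). Eef1a2 gave the larger part of the pair's reads in both SC libraries and the smaller part in both TTC libraries. The share differed between codes in the WT libraries (adjusted p = 4.75e-07) and in the Ltn1 KO libraries (adjusted p = 6.92e-10, two-sided Fisher's exact test, adjusted over 12 tests of 3 paralog pairs). These p-values cover counting error only, on a contrast whose Eef1a2 values were already known. With a chi-square statistic divided by the mean Pearson statistic of the pair of libraries (4.15 and 5.12, explained with the calls of the members), an alternative added later, the adjusted p was 0.0371 in WT and 0.0236 in Ltn1 KO. That test used the same known contrast and was adjusted over the 12 tests only. With the variance scaled likewise and adjusted over all transcripts, Eef1a2 itself did not pass between codes (adjusted p = 0.986 in WT and 0.776 in Ltn1 KO). Between genotypes the share was higher in Ltn1 KO under both codes without passing, at adjusted p = 0.104 for SC and 0.112 for TTC in the same exact test.

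**Figure D1:**
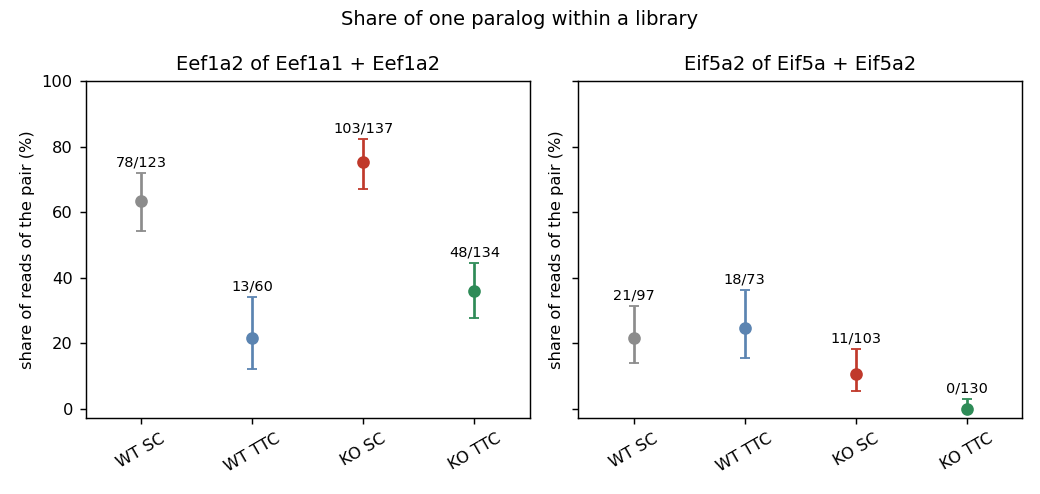
Share of reads (vertical axes, %) from Eef1a2 among Eef1a1 plus Eef1a2 (left) and from Eif5a2 among Eif5a plus Eif5a2 (right) in the 4 libraries (horizontal axes). Points are shares, bars are exact 95% intervals and the numbers give the reads behind each share. The Eef1a2 share is above 50% in both SC libraries and below 50% in both TTC libraries, and the Eif5a2 share falls to 0 of 130 reads in KO TTC.

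The eEF1B subunits did not follow one pattern. Eef1b2, the subunit that exchanges the nucleotide of eEF1A, had 43 reads under SC and 37 under TTC in the WT libraries (20.5 and 25.3 RPM), and 48 under SC and 134 under TTC in the Ltn1 KO libraries (17.96 and 36.7 RPM). KO TTC was the highest library, and its interval overlapped that of WT TTC (30.7 to 43.4 RPM against 17.8 to 34.9 RPM). Eef1b2 was 2.04-fold higher in KO TTC than KO SC (1.46 to 2.90, adjusted p = 0.000275, exact binomial test). Against WT TTC the ratio of KO TTC was 1.45 (0.999 to 2.14, adjusted p = 0.269), between the WT libraries the TTC to SC ratio was 1.24 (0.774 to 1.96, adjusted p = 0.702), and between the SC libraries the KO to WT ratio was 0.875 (0.568 to 1.35, adjusted p = 0.829), all in the same exact test.

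Eef1g, the structural subunit of eEF1B, had 13 reads under SC and 4 under TTC in the WT libraries (6.20 and 2.74 RPM), and 12 under SC and 30 under TTC in the Ltn1 KO libraries (4.49 and 8.21 RPM). KO TTC was again the highest and WT TTC the lowest, with a ratio of 3.00 between them (1.06 to 11.7) that did not pass (adjusted p = 0.210, exact binomial test). Eef1d, a second exchange subunit, had 1 and 2 reads in the WT libraries and 0 and 3 in the Ltn1 KO libraries, SC first. All 4 values are within the floor of 3 reads, which equals 0.821 RPM in the deepest and 2.05 RPM in the shallowest library, so no difference in Eef1d was detectable at this depth.

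Eef2 had 377 reads under SC and 377 under TTC in the WT libraries (179.9 and 258 RPM), and 393 under SC and 734 under TTC in the Ltn1 KO libraries (147 and 201 RPM). It gave 65.7% to 76.5% of the reads of all members, so the summed level of the members is mostly Eef2. WT TTC was highest and KO SC lowest, and each TTC library exceeded the SC library of its genotype. The TTC to SC ratio was 1.44 in the WT libraries (1.24 to 1.66, adjusted p = 5.35e-05) and 1.37 in the Ltn1 KO libraries (1.21 to 1.55, adjusted p = 1.80e-05, exact binomial test). Among the 1356 other transcripts that averaged 10 RPM or more, 323 lay higher in the WT pair and 416 in the Ltn1 KO pair. The place of Eef2 was thus not extreme.

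Eef2 was lower in Ltn1 KO than in WT under both codes. The ratio was 0.778 in the TTC libraries (0.686 to 0.883, adjusted p = 0.00380) and 0.817 in the SC libraries (0.708 to 0.944, adjusted p = 0.0721, exact binomial test), and only the former passed. The ratio of the 2 ratios was 0.951 (adjusted p = 0.975, exact test of the ratio of ratios). With 377 to 734 reads a library, Eef2 was the most precisely measured member. Its changes were also the smallest of those that passed. Between the TTC libraries, 357 of the 1356 other transcripts averaging 10 RPM or more lay lower in KO against WT than Eef2.

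**Figure D2:**
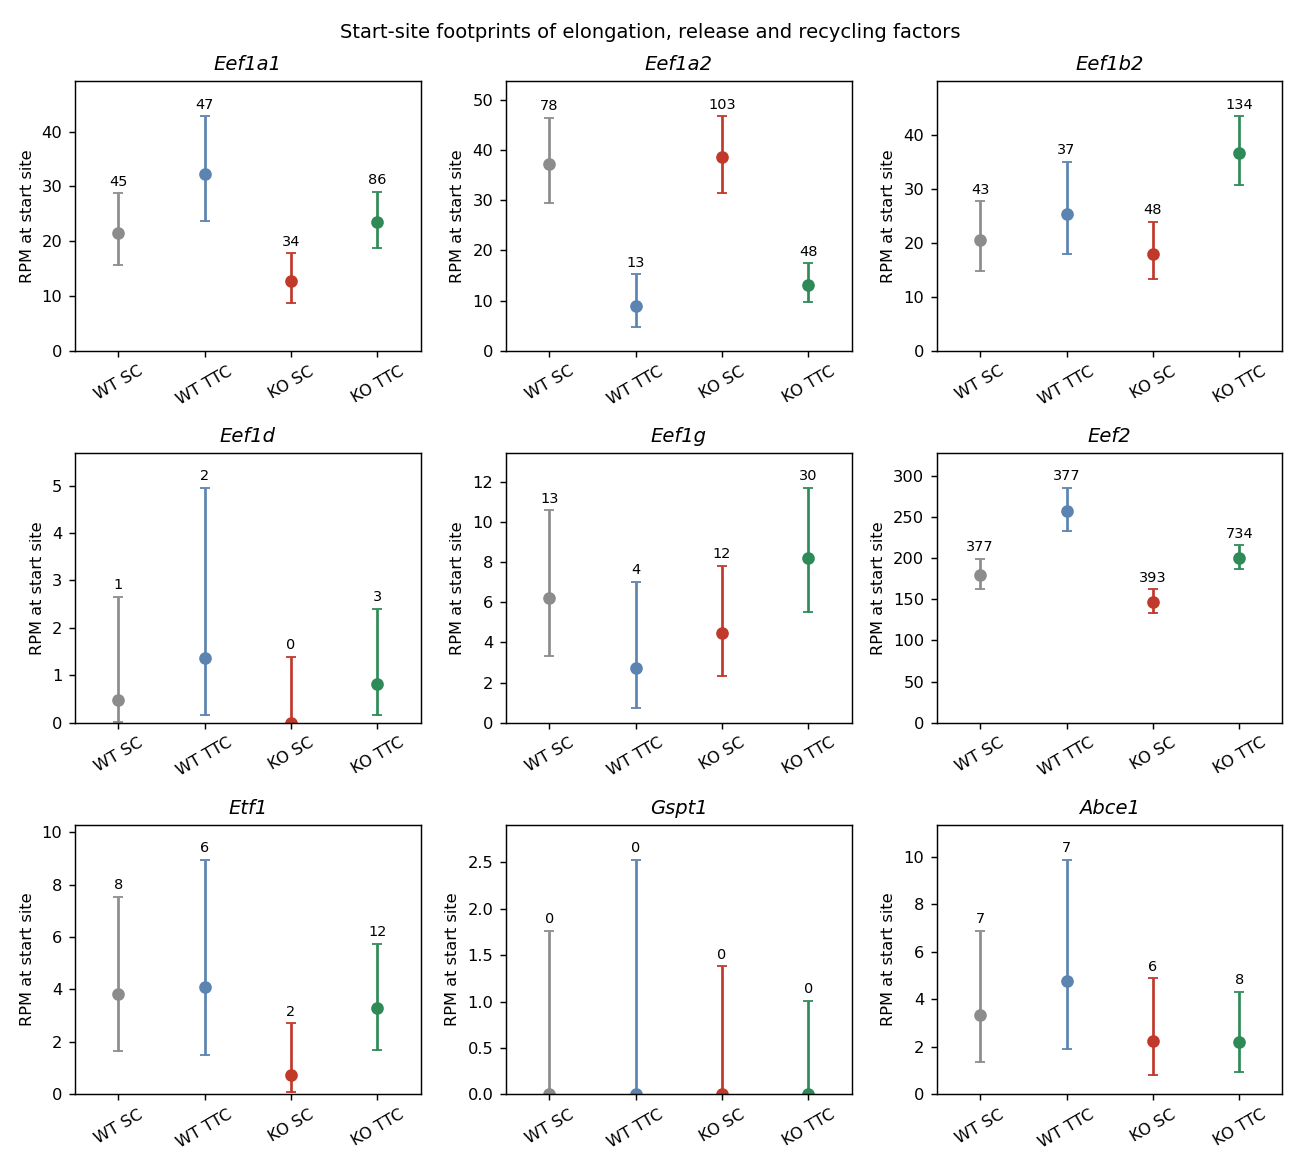
Footprints at the start site in RPM (vertical axes, linear from 0, a different range in each panel) of the 9 members in the 4 libraries (horizontal axes). Points are levels, bars are exact Poisson 95% intervals and the numbers above them are reads. Eef1a2 is high in both SC libraries, Eef2 is highest in WT TTC at 258 RPM, and Gspt1 has 0 reads in each library.

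Termination and recycling factors were at the lower end of depth. Etf1 had 8 reads under SC and 6 under TTC in the WT libraries (3.82 and 4.11 RPM), and 2 under SC and 12 under TTC in the Ltn1 KO libraries (0.748 and 3.28 RPM). KO SC was the low library. Its ratio to WT SC was 0.196, with an interval from 0.0203 to 0.982, and did not pass (adjusted p = 0.178, exact binomial test). The ratio of KO TTC to KO SC was 4.39 (0.977 to 40.4, adjusted p = 0.192, same exact test). The other pairs had ratios of 0.799 (0.278 to 2.59) for KO TTC to WT TTC and 1.08 (0.308 to 3.54) for WT TTC to WT SC. With 2 to 12 reads a library, all these intervals are wide for Etf1. Those of KO TTC to WT TTC and WT TTC to WT SC hold changes of more than 2-fold in either direction. That of KO SC to WT SC lies below 1, and that of KO TTC to KO SC almost wholly above 1.

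Gspt1 had 0 reads in each of the 4 libraries, which allows up to 3 reads, or 0.821 RPM in the deepest library. Its paralog Gspt2, the other eRF3 gene, had 1 and 3 reads in the WT libraries (SC, TTC) and 0 in both Ltn1 KO libraries, all within the same floor. Neither eRF3 gene could therefore be compared. Abce1 had 7 reads in each WT library (3.34 RPM under SC, 4.79 RPM under TTC), and 6 under SC and 8 under TTC in the Ltn1 KO libraries (2.24 and 2.19 RPM). Its ratios ran from 0.457 (0.145 to 1.48, KO TTC to WT TTC) to 1.44 (0.430 to 4.80, WT TTC to WT SC), and none passed.

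Counted over the set, 0 of 9 members passed between KO SC and WT SC, where 7.38% of all 5355 transcripts with reads passed (4.74% lower and 2.63% higher in KO SC). Eef1a1, Eef2 and Etf1 had unadjusted p under 0.05 there (0.0230, 0.00576 and 0.0264, exact binomial test). Between KO TTC and WT TTC, 1 of 9 was lower (Eef2) and none was higher, against 7.54% of 5448 transcripts (4.41% lower and 3.14% higher). Between WT TTC and WT SC, 1 was lower (Eef1a2) and 1 higher (Eef2), against 10.8% of 5345 transcripts (3.82% lower and 7.02% higher). Between KO TTC and KO SC, 1 was lower (Eef1a2) and 3 were higher (Eef1a1, Eef1b2 and Eef2), against 16.6% of 5623 transcripts (5.71% lower and 10.9% higher). These 4 comparisons share libraries and are not independent of each other, and members with more reads could pass at smaller ratios than those with few.

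At any size, 7 of the 8 members with reads were lower in KO SC than WT SC (87.5%, against 54.9% of all transcripts with reads) and 5 of 8 were lower in KO TTC than WT TTC (62.5%, against 49.1%). The median difference over the 9 members on the log2(RPM + 1) scale was -0.39 and -0.25, and the median over all transcripts was 0 in both. Between codes the median was 0.29 in the WT libraries and 0.75 in the Ltn1 KO libraries, against 0 and 0.04 over all transcripts. Transcripts with no reads in a pair of libraries draw the medians over all transcripts towards 0. Over transcripts averaging 10 RPM or more, the medians were -0.09 and -0.06 between genotypes (SC, TTC). Between codes they were 0.10 in WT and 0.15 in Ltn1 KO. By a fold of at least 2 on that scale, Etf1 was lower in KO SC than WT SC (as were 9.12% of all transcripts, with 8.44% higher) and Eef1g was higher in KO TTC than WT TTC (12.2%, with 7.98% lower). Between codes, Eef1a2 was lower under TTC in WT (12.4%, with 13.4% higher) and in Ltn1 KO (7.3%), and Etf1 was higher under TTC in Ltn1 KO (12.5%). For Etf1 and Eef1g these folds rest on 2 to 30 reads a library.

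The KO to WT ratio was also compared between codes. No member passed the exact test of the ratio of ratios, which 3.96% of 4642 transcripts did. Eef1g came nearest, with KO to WT ratios of 0.724 in SC and 3.00 in TTC (unadjusted p = 0.0419, adjusted p = 0.295). Eef1a2 had ratios of 1.04 and 1.48 (adjusted p = 0.794) and Eef1b2 0.875 and 1.45 (adjusted p = 0.454), in the same exact test.

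**Figure D3:**
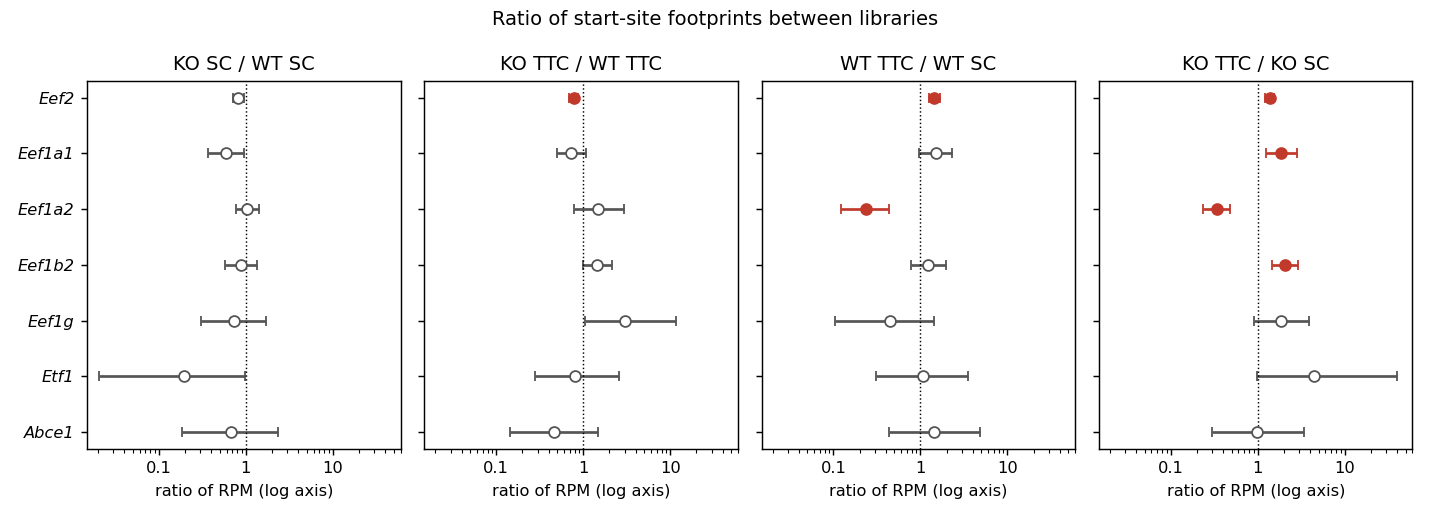
Ratio of RPM between 2 libraries (horizontal axes, log scale) for the 7 members with more than 3 reads in some library (rows), 1 panel for each comparison. Points are ratios, bars are exact 95% intervals, the dotted line marks 1, and filled red points passed the test on reads (adjusted p up to 0.05). Eef1a2 lies left of the line in both TTC to SC panels, at 0.239 and 0.341, where Eef2 lies right of it.

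All 7 member calls describe single libraries. Reads varied between libraries beyond counting error: over transcripts with at least 20 reads, the mean Pearson statistic, which is near 1 for counting error alone, was 3.28, 3.17, 4.15 and 5.12 for KO to WT in SC, KO to WT in TTC, TTC to SC in WT and TTC to SC in Ltn1 KO. Each pair differs in genotype or code, so the statistic also holds any effect of these and does not measure spread between replicates. With the variance scaled by that statistic, the adjusted p of Eef1a2 between codes was 0.986 in the WT and 0.776 in the Ltn1 KO libraries. In edgeR's quasi-likelihood test of an additive model of genotype and code, which treats both pairs as repeats, Eef1a2 was lower in TTC by a log2 fold change of -1.74 (adjusted p = 0.243) and Eef2 higher by 0.48 (adjusted p = 0.289). That model called 0 of 3703 transcripts for either term.

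Marker genes of other cells moved with part of these results. The summed level of 9 of 12 oligodendrocyte lineage markers found in the table was 38.6 RPM under SC and 93.8 under TTC for WT, and 11.97 and 46.5 for Ltn1 KO, with Bcas1 at 0 in all of them. In the same order, progenitor markers (4 of 7 found) summed to 38.6, 58.2, 23.9 and 43.2 RPM and astrocyte markers (7 of 8) to 192, 229, 113 and 173 RPM. Neuron markers (13 of 13) summed to 1882, 1776, 2031 and 1823 RPM, and none of 7 microglia markers was in the table. The members summed to 273, 338, 224 and 289 RPM. Eef1a1, Eef2 and the members' sum had the same order of libraries as the oligodendrocyte lineage sum (WT TTC, KO TTC, WT SC, KO SC from high to low), which also kept that order with any 1 of its markers left out. The progenitor sum had this order too, but not without Hes5, when it was 30.1 (SC) and 29.4 RPM (TTC) for WT, and 18.3 and 28.4 RPM for Ltn1 KO. The neuron sum had the reverse order, as did Eef1a2. That order rested on Tubb3, without which the neuron sum was 825 and 733 RPM for WT, and 753 and 744 RPM for Ltn1 KO. Single neuron markers moved both ways under TTC, with 8 lower and 5 higher in WT and 7 lower and 6 higher in Ltn1 KO. Their part in the results was not tested.

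The transcripts most like Eef1a2 over the 4 libraries, by the root mean square distance of centred log2(RPM + 1) values among 1356 transcripts averaging 10 RPM or more, were Kctd12 (0.207), Tuba4a (0.228), Calb2 (0.262), Prepl (0.275) and Lrrtm1 (0.318). Kctd12 is an auxiliary subunit of GABA B receptors, Tuba4a an alpha-tubulin, Calb2 the calcium-binding protein calretinin, Prepl a serine hydrolase and Lrrtm1 a synaptic adhesion protein. Kctd12, for example, had 50.1 (SC) and 17.8 RPM (TTC) in WT, and 52.0 and 19.4 RPM in Ltn1 KO. Lrrtm1 had 21.0 and 4.79 RPM in WT, and 16.5 and 3.83 RPM in Ltn1 KO.

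For Etf1 the nearest of 1357 transcripts included Derl1 (0.0929), Maged1 (0.104), Mrpl17 (0.118) and Hspa5 (0.131). Derl1, which acts in the disposal of misfolded proteins from the endoplasmic reticulum, had 25.8 (SC) and 28.1 RPM (TTC) in WT, and 10.5 and 23.8 RPM in Ltn1 KO. Hspa5, the chaperone BiP, had 33.9 and 32.9 RPM in WT, and 13.5 and 33.9 RPM in Ltn1 KO. In each of these 4 the low library was KO SC, as for Etf1. They were picked for their likeness to Etf1, so this follows from the choice and carries no weight. The profile of Etf1 itself rests on 28 reads in all.

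The 3 further lists of translation genes had 21 transcripts in the table. Of 16 symbols for other cytosolic elongation, release and rescue genes (which include an old and a new symbol of 1 gene), 10 were found. Of 19 for enzymes that modify the factors, 5 were found, and of 10 for their mitochondrial counterparts 6. Between genotypes, 1 of these 21 was lower in KO SC than WT SC and 2 were lower in KO TTC than WT TTC, with none higher, beside 4.74% lower and 2.63% higher (SC) and 4.41% lower and 3.14% higher (TTC) of all transcripts with reads. Between codes, 2 were lower and 1 higher under TTC in WT, and 3 lower and 1 higher under TTC in Ltn1 KO, beside 3.82% lower and 7.02% higher (WT) and 5.71% lower and 10.9% higher (Ltn1 KO) of all transcripts with reads. The genes behind these counts are Eif5a2, Gtpbp1, Dohh, N6amt1, Mrrf and Gfm2, and each call involves a library with 0 reads. Their folds are therefore taken against the floor of 3 reads in that library. Counting error of the other library is left out, so these folds are not lower bounds.

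Eif5a2, the less widely expressed of the 2 genes for eIF5A, which helps ribosomes through difficult peptide bonds, had 21 reads under SC and 18 under TTC in the WT libraries (10.02 and 12.3 RPM), and 11 under SC (4.12 RPM) and 0 under TTC in the Ltn1 KO libraries. Taken at that floor, KO TTC was 15.0-fold lower than WT TTC (adjusted p = 6.63e-08) and 5.01-fold lower than KO SC (adjusted p = 0.00127, exact binomial test). Its share of the reads of both eIF5A genes was 21.6% under SC and 24.7% under TTC in WT, 10.7% under SC in Ltn1 KO and 0 of 130 reads under TTC in Ltn1 KO, which allows a share of up to 2.31% at the floor of 3 reads (exact Clopper-Pearson upper limit 2.80%). This share differed between KO TTC and WT TTC (adjusted p = 1.34e-08) and between KO TTC and KO SC (adjusted p = 0.000276), and not between the SC libraries (adjusted p = 0.105) or the WT libraries (adjusted p = 1), in Fisher's exact test. With the scaled chi-square statistic, the difference from WT TTC passed (adjusted p = 0.0105) and that from KO SC did not (adjusted p = 0.274).

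Dohh, which completes the hypusine that eIF5A needs, had 0 and 10 reads in the WT libraries (SC, TTC) and 6 and 20 in the Ltn1 KO libraries. Its level in WT TTC was 4.78-fold the floor of WT SC (adjusted p = 0.00315, exact binomial test). N6amt1, the methyltransferase that modifies eRF1, had 23 and 15 reads in WT SC and KO SC and 0 in both TTC libraries. Taken at the floor, it was 5.34-fold and 6.84-fold lower there (adjusted p = 0.000259 in WT and 7.52e-05 in Ltn1 KO, same exact test). Gtpbp1, a GTPase related to eEF1A, had 7 and 6 reads in the WT libraries (SC, TTC) and 0 and 18 in the Ltn1 KO libraries. With KO SC taken at the floor, Gtpbp1 was 2.98-fold lower there than in WT SC (adjusted p = 0.0455, lost after rescaling to the same sum). It was 4.39-fold higher in KO TTC than at that floor (adjusted p = 0.000967, exact binomial test).

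Among the mitochondrial factors, Mrrf, which recycles mitochondrial ribosomes, had 15 and 10 reads in WT SC and KO SC and 0 in both TTC libraries. Under TTC, taken at the floor, it was 3.48-fold lower in WT (adjusted p = 0.0119) and 4.56-fold lower in Ltn1 KO (adjusted p = 0.00260, exact binomial test). Gfm2, its partner in recycling, had 5 reads in WT TTC and 0 elsewhere. Taken at the floor, KO TTC was 4.17-fold lower than WT TTC (adjusted p = 0.0315, same exact test). The pattern of N6amt1 and Mrrf, with at least 10 reads in both SC libraries and 0 in both TTC libraries, was shared by 28 of the 6352 transcripts (0.441%), and 29 (0.457%) had the reverse pattern.

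**Figure D4:**
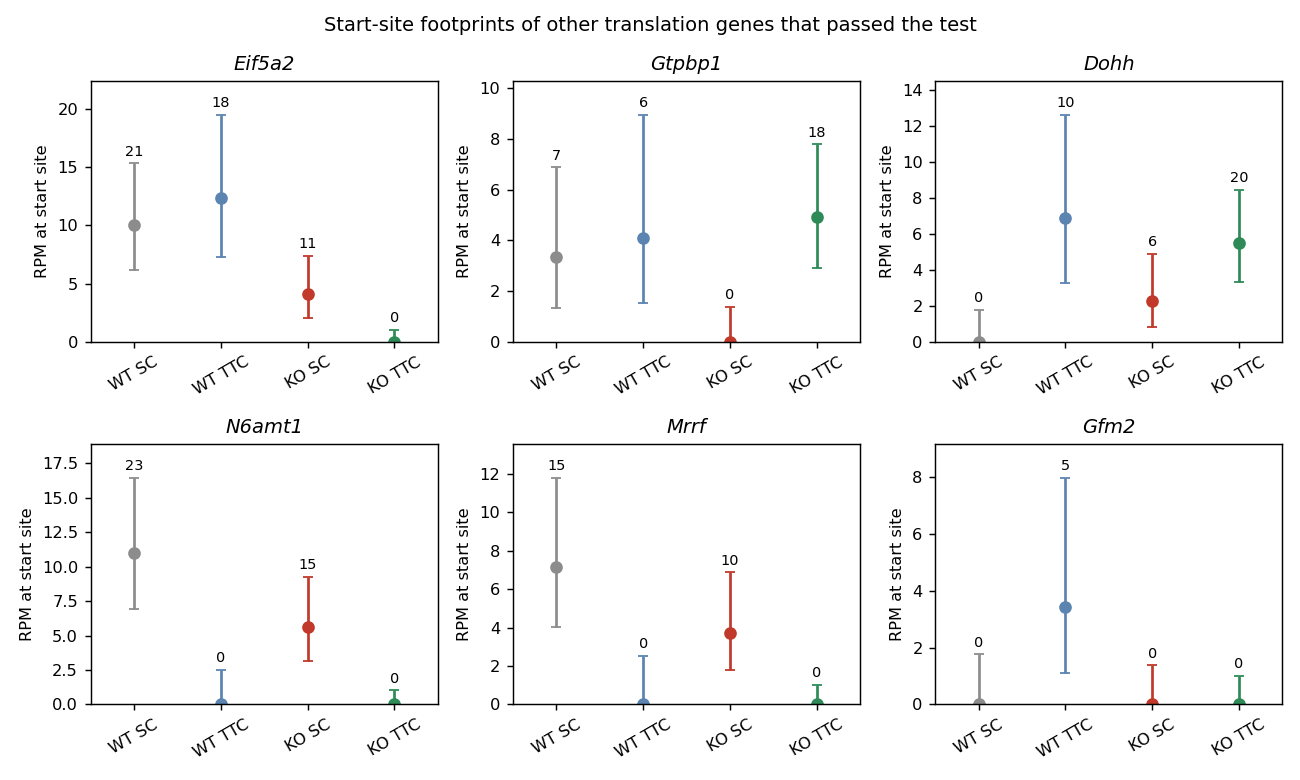
Footprints at the start site in RPM (vertical axes, linear from 0, a different range in each panel) of the 6 other translation genes that passed the exact binomial test in some comparison, in the 4 libraries (horizontal axes). Points are levels, bars are exact Poisson 95% intervals and the numbers above them are reads. Each gene has at least 1 library with 0 reads, and N6amt1 and Mrrf have 0 in both TTC libraries.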

How the data were processed

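Ribosome footprints at start sites had been measured by the authors in 4 libraries of harringtonine-treated primary mouse cortical neurons. The deposited table gives RPM per transcript and library. Bowtie, SAMtools, bedtools and the build GRCm38 (mm10) appear in the submitters' processing notes. Versions, the counted window, the annotation and the choice of transcripts were not given in the sources used here.

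Whole reads were recovered from the RPM steps (100% of values whole within 1e-06). Symbols were joined by identifier for 6351 of 6352 transcripts through the study's list of ranked genes, after 38 identifiers with an extra zero had been mended. Groups came from titles. Libraries were compared on the recovered reads by an exact binomial test (two-sided, conditional on both libraries' total reads), since there were no replicates, adjusted by the Benjamini-Hochberg method over all transcripts with reads at 0.05. A fold rule of at least 2 used log2(RPM + 1). Paralog shares were compared with Fisher's exact test (and, added later, a chi-square statistic divided by the pair's Pearson statistic), and KO to WT ratios between codes with an exact test based on Fisher's noncentral hypergeometric distribution. A floor of 3 reads was set for a count of 0. The scripts were tested on simulated reads that held counting error only. Those tests therefore do not cover false calls at the larger spread seen between these libraries. Alternatives were 2 other scalings, a mean of at least 5 RPM, a pseudocount of 0.1 RPM, a variance scaled by the Pearson statistic of transcripts with at least 20 reads, and edgeR with and without TMM. The edgeR low-count filter was first filterByExpr and was then changed to at least 20 reads over the 4 libraries, after the result of the former had been seen.

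The members and the gene lists were chosen with earlier results of these data known. Named were every member, the genes of the other translation lists that passed in some comparison, and the 5 transcripts most like Eef1a2 and Etf1, of which 1 is not reported here. The CG count, the place of members among other transcripts and the count of transcripts with 0 reads in both libraries of a code were added after values were seen. The motif TATAA (either strand) was searched before the CG count and was present before 22.8% of 32851 RefSeq starts and, of the 6 members with an entry, before Eef2 only. Promoter bases and pseudogene names are from RefSeq (GRCm38.p6), and no coordinates or bases are given for Etf1. Software was R 4.3.3 with edgeR 4.0.16, and Python 3.11.15 with scipy 1.17.1, numpy 2.4.6, matplotlib 3.10.9 and pandas 2.3.3.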

Additional observations from a re-analysis of the deposited data

Results flagged for a closer look

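The KO to WT ratio of Eif5a2 differed between codes. Under SC it had 21 reads for WT and 11 for Ltn1 KO, and under TTC 18 for WT and 0 for Ltn1 KO. The exact test of the ratio of ratios gave an adjusted p of 0.0109 (0.0109 after rescaling to the same sum, 0.00819 with transcripts under a mean of 5 RPM left out), and 3.96% of 4642 transcripts passed it. In each code 1 library stands for a genotype, so the test compares 4 libraries and covers counting error only.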

How the results depend on the processing

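Over the members, 208 values were recomputed under the alternatives: 167 kept direction and side of the threshold, 30 lost the call and 11 changed sign. The 7 calls were lost with the scaled variance and in all 3 edgeR fits (with and without TMM, and with filterByExpr, which was run first and is listed as added), and the call of Eef1a1 in KO TTC against KO SC was also lost under both rescalings. The additive edgeR model gives 1 genotype and 1 code effect for both pairs, so a pair can change sign by construction. Log2 values that did so were, for KO against WT in SC, 0.19, 0.27 (TMM) and 0.19 (filterByExpr) for Eef1b2 and 0.47, 0.55 and 0.47 for Eef1g. For TTC against SC they were 0.027 in edgeR and 0.027 with filterByExpr for Eef1g in WT, -0.10 (TMM) for Eef1g in Ltn1 KO, and 0.24 and 0.12 (TMM) for Abce1 in Ltn1 KO.

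edgeR called 0 of 3703 transcripts in every comparison (unadjusted p under 0.05: 150 lower and 97 higher in Ltn1 KO, 153 lower and 341 higher in TTC, and with TMM 102, 133, 213 and 242) and 0 of 2808 with filterByExpr (133, 60, 129 and 282). Where a count below is given as a pair, the first is lower and the second higher. The scaled variance called 2 and 1 (KO SC against WT SC), 5 and 0 (KO TTC against WT TTC), 1 and 7 (WT TTC against WT SC) and 0 and 5 (KO TTC against KO SC), in place of 254 and 141, 240 and 171, 204 and 375, and 321 and 613. A mean of at least 5 RPM left 70 higher in the first, 150 and 108 in the second, 239 higher in the third and 154 lower in the fourth, with at least 2-fold counts of 158 and 69, 108 and 122, 160 and 220, and 73 and 223. A pseudocount of 0.1 RPM gave 2-fold counts of 1060 and 970, 889 and 1293, 1227 lower, and 849 and 1375. Median-of-ratios factors left 388 higher in KO TTC against KO SC. Of all translation lists, calls lower in KO SC against WT SC went from 1 to 0 under rescaling to the same sum and under 5 RPM, and 5 RPM left 1 lower and 1 higher in WT TTC against WT SC and 2 lower in KO TTC against KO SC.

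Rescaling to the same sum moved log2 ratios by 0.07, 0.03, -0.10 and -0.14 in the 4 comparisons and median-of-ratios factors by 0.14, 0.06, -0.10 and -0.17. No replicate could be left out. A replicate block could not be fitted, since each condition has 1 library, and the additive edgeR model is the fit that compares genotypes within codes and codes within genotypes. With the share test scaled by the Pearson statistic (an approximate test added later), the Eif5a2 share in KO TTC against KO SC (-10.7 percentage points) no longer passed, and the other 7 shares of the eEF1A and eIF5A pairs stayed on their side of the threshold. The check of start windows for other matches in the genome was not run, since no genome was used here.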
